A study of Mus musculus with 228 samples.

Results

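The genes examined were 8 genes known from immature neurons, Dcx, Sox11, Sox4, Calb2, Igfbpl1, Stmn1, Tubb2b and Dpysl3. They were chosen by name, and all 8 were found among the 22870 gene rows of the deposited count table. RNA was sequenced from single neurons drawn into a patch pipette (patch-RNAseq) from slices of the ventral hippocampus of adult mice. Ascl4 GC cells were granule cells of Calb1-Cre mice that had received a Cre-dependent AAV for EGFP together with an AAV for Ascl4, and GFP GC cells were granule cells of the same line given the Cre-dependent EGFP virus alone. Ascl4 CA1 and GFP CA1 cells were medial CA1 pyramidal neurons of Nex-Cre mice given the same virus combinations. All mice were 3 to 4 months old and had been injected 1 month before recording. AAV is adeno-associated virus, EGFP a green fluorescent protein, and Ascl4 a member of the achaete-scute family of basic helix-loop-helix factors. Cre is driven from Calb1 or Nex in these lines, and the cell types cannot be told apart from the lines. Control mice received no second virus, so Ascl4 and the presence of a second virus cannot be told apart either.

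A new neuron passes through a phase in which it grows an axon and dendrites, and the genes of that phase mostly serve the cytoskeleton or its transcriptional program. In the dentate gyrus, where granule cells are added after birth, Dcx and Calb2 are the standard stains for young granule cells. Sox4 and Sox11 are SoxC transcription factors of newborn neurons. Dcx binds and stabilises microtubules, Stmn1 binds free tubulin and promotes microtubule loss, Tubb2b is a beta-tubulin, and Dpysl3 (CRMP4) is a collapsin response mediator protein of growing neurites. Calb2 (calretinin) is a calcium buffer, which several interneuron types, mossy cells of the mouse hilus and Cajal-Retzius cells also hold. Igfbpl1 encodes a relative of the insulin-like growth factor binding proteins. Several of these genes stay on at some level in mature neurons.

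Achaete-scute factors, as dimers with E proteins, bind DNA at E-boxes, and the letters of the promoters are therefore shown for the SoxC pair, of which Sox11 differed between the CA1 groups. RefSeq windows on GRCm38.p6 were matched by symbol for 3 of the 8 genes (Dcx, Sox11 and Sox4). The 250 bases before the annotated start are given 5′ to 3′ on the gene's strand, with E-boxes (CANNTG, the same on both strands) in capitals. The windows are chr12:27342719-27342968 (minus strand) for Sox11 and chr13:28953700-28953949 (minus strand) for Sox4.
Sox11: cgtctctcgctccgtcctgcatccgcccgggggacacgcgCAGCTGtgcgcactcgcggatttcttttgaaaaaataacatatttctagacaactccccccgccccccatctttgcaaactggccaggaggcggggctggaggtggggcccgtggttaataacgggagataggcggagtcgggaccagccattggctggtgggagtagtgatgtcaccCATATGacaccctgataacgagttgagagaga
Sox4: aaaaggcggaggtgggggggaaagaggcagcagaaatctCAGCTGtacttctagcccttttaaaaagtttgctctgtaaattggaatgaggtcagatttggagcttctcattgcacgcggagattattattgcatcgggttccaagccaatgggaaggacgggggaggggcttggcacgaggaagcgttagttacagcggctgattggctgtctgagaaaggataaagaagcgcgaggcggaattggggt
Each of these windows held 1 copy of CAGCTG, a form of the E-box found in 4271 of 32851 RefSeq windows of the same length. Any CANNTG was found in 66.2% of those windows, and the pair of overlapping Dcx windows held none. The Sox11 window does not begin at a transcript start of the GENCODE annotation used below for gene positions. A match of letters is a description of the window and does not show binding.

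The authors' quality-controlled table held 51 Ascl4 GC, 47 GFP GC, 45 Ascl4 CA1 and 46 GFP CA1 cells, and each cell had between 1077532 and 25442664 reads in genes. The labels name no animal and no batch, so cells are not replicates here and a group is 1 sample. The groups could not be tested against each other, and intervals below cover counting error only. Levels are counts per 1000000 reads of a group, taken from the sum of its cells (CPM), given with the lowest, median and highest cell. Differences are log2 ratios after adding 1 CPM, which understates the fold of low genes. Ascl4 itself was at 14111 CPM in Ascl4 GC cells and 47.2 CPM in GFP GC cells, and at 9395 CPM in Ascl4 CA1 cells and 32.5 CPM in GFP CA1 cells. The granule cell gene Prox1 was at 156.2 CPM in Ascl4 GC and 175.3 CPM in GFP GC cells, against 7.78 CPM in Ascl4 CA1 and 0.240 CPM in GFP CA1 cells. The level in Ascl4 CA1 rested on 1 cell, the only one there with Prox1 at 10 CPM or more, and the log2 ratio between the CA1 groups was 2.82, and -0.03 for mean CPM without the highest cell.

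Some cells stood apart. In 3 Ascl4 GC and 8 Ascl4 CA1 cells, and in 0 GFP GC and 0 GFP CA1 cells, the summed CPM of 12 markers favoured the cell type other than the one on the label. Calb1 alone gave 1104 of the 1223 CPM of pooled granule cell markers in Ascl4 CA1, and 617 of 660 CPM in GFP CA1 cells. In CA1 the granule cell sum was thus mostly Calb1. For 1 of the 3 Ascl4 GC cells the sums were close, at 174.1 CPM for granule cell and 176.3 CPM for CA1 markers. More than 12000 genes had a read in 4 Ascl4 GC cells and 1 Ascl4 CA1 cell, and in no GFP cell, whereas the median cell of the groups had 6832 to 6975 genes. In those 4 Ascl4 GC cells the summed level of 13 oligodendrocyte lineage markers was 61794 to 116768 CPM, against at most 1705 CPM in the other 47 Ascl4 GC cells and at most 5318 CPM in GFP GC cells. Their microglia markers summed to 2785 to 10059 CPM and their astrocyte markers to 3774 to 6476 CPM. Their granule cell markers summed to 174.1 to 583 CPM and Ascl4 was at 182.9 to 3043 CPM, against medians of 2540 CPM and 11178 CPM over all Ascl4 GC cells. High glial markers were not limited to the Ascl4 groups or to cells of more than 12000 genes. In CA1 cells under that limit, the oligodendrocyte sum reached 11536.5 CPM in Ascl4 CA1 and 21683.5 CPM in GFP CA1. That GFP CA1 cell had microglia markers at 12920 CPM, astrocyte markers at 12528 CPM and CA1 markers at 14.7 CPM. It was also the highest GFP CA1 cell for Tubb2b, at 1176 CPM. Results that move when the cells of more than 12000 genes are left out are given below both ways. The labels number the cells in 2 runs, which they do not call batches, and each difference was also computed within each run. The runs were unbalanced between the GC groups, with 33 Ascl4 GC and 15 GFP GC cells in the first and 18 and 32 in the second. A gene is called steady when the difference reached 1.5-fold in 1 direction in summed reads, in mean CPM over cells both with and without each group's highest cell, and in both runs.

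**Figure D1:**
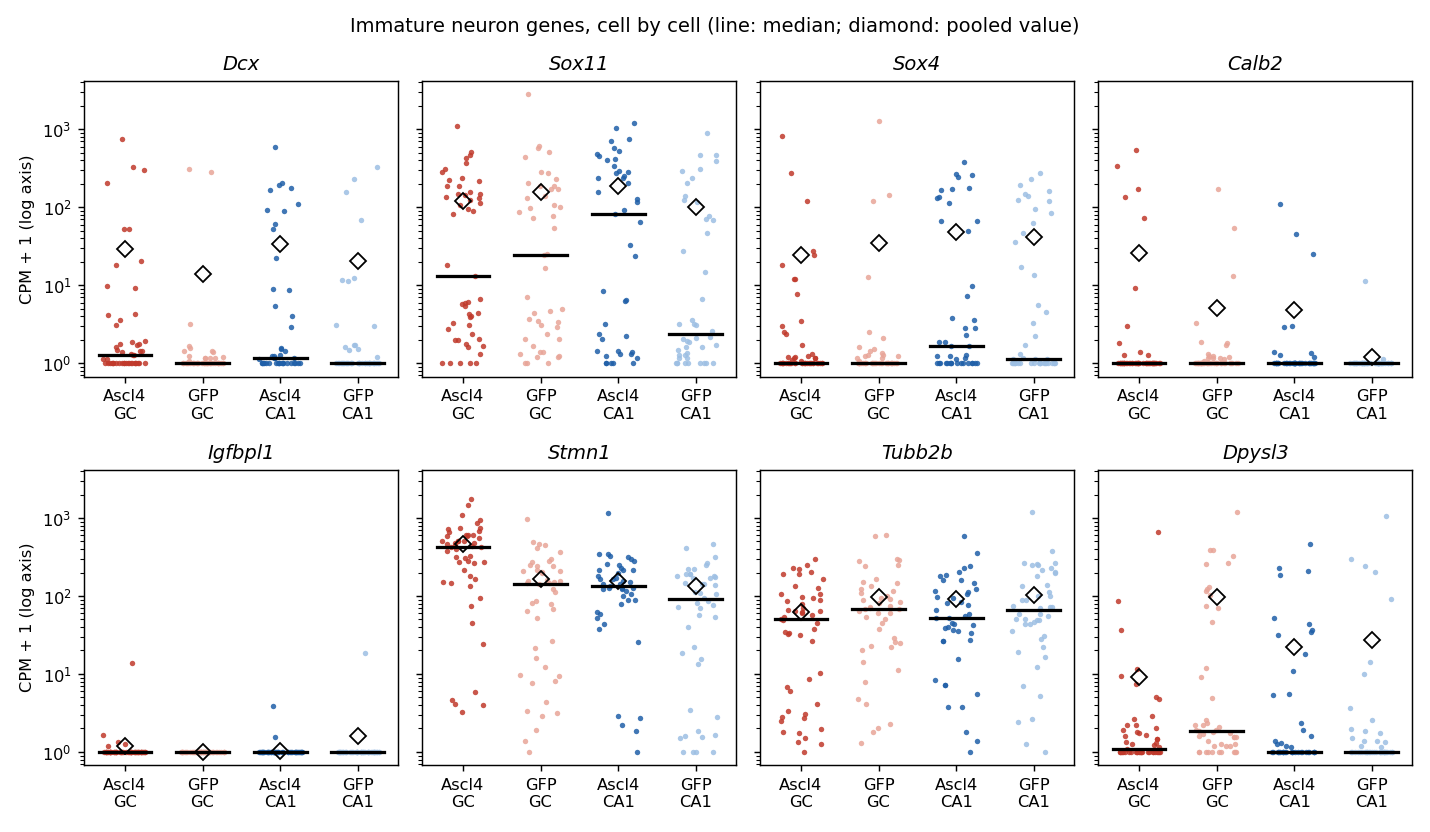
Each point is 1 cell, and the vertical log axis gives CPM plus 1 for each of the 8 genes in Ascl4 GC, GFP GC, Ascl4 CA1 and GFP CA1 cells. Lines are medians over cells and diamonds are the pooled values. Stmn1 and Tubb2b were present in most cells of every group, whereas Dcx, Sox4, Calb2 and Dpysl3 were high in a minority of cells and Igfbpl1 was almost absent.

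The 8 genes did not move as a set in any comparison. In Ascl4 GC against GFP GC cells, 3 of the 8 were at least 1.5-fold higher (Dcx, Calb2 and Stmn1) and 2 at least 1.5-fold lower (Tubb2b and Dpysl3). Over all 9783 expressed genes of that comparison, 25.6% were higher and 30.7% lower by that fold. In Ascl4 CA1 against GFP CA1 cells, 3 were higher (Dcx, Sox11 and Calb2) and 1 lower (Igfbpl1), against 24% higher and 24.3% lower of 9781 expressed genes. In GFP CA1 against GFP GC cells, 1 was higher (Igfbpl1) and 3 were lower (Sox11, Calb2 and Dpysl3), against 30.5% higher and 27.1% lower of 9954 expressed genes. Expressed genes are those with a read in 25% or more of the cells, and a level of 10 CPM or more, in at least 1 group. That held for 7, 6 and 6 of the 8 genes in these comparisons, and Igfbpl1 passed in none of them. Of the genes that passed, 3 were higher and 2 lower in Ascl4 GC, 2 higher and 0 lower in Ascl4 CA1, and 0 higher and 2 lower in GFP CA1 cells. The median log2 ratio of the 8 genes was -0.07, 0.21 and -0.11 in the 3 comparisons, beside medians of -0.08, -0.02 and 0.02 over expressed genes. With Igfbpl1, which had no read in GFP GC cells, set at its lower bound, the first of these medians was 0.32 and the third -0.11. The comparisons share control cells, since GFP GC and GFP CA1 cells each enter a pair of them.

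Few of the genes were steady. Stmn1 was steady higher and Dpysl3 steady lower in Ascl4 GC cells, where 10.3% of expressed genes were steady higher and 11.7% steady lower. Sox11 was steady higher in Ascl4 CA1 cells, where 8.97% were steady higher and 8.57% steady lower. Dpysl3 and Calb2 were steady lower in GFP CA1 than in GFP GC cells, although Calb2 did not pass the filter on low values, and in that comparison 15% of expressed genes were steady higher and 11.4% steady lower.

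**Figure D2:**
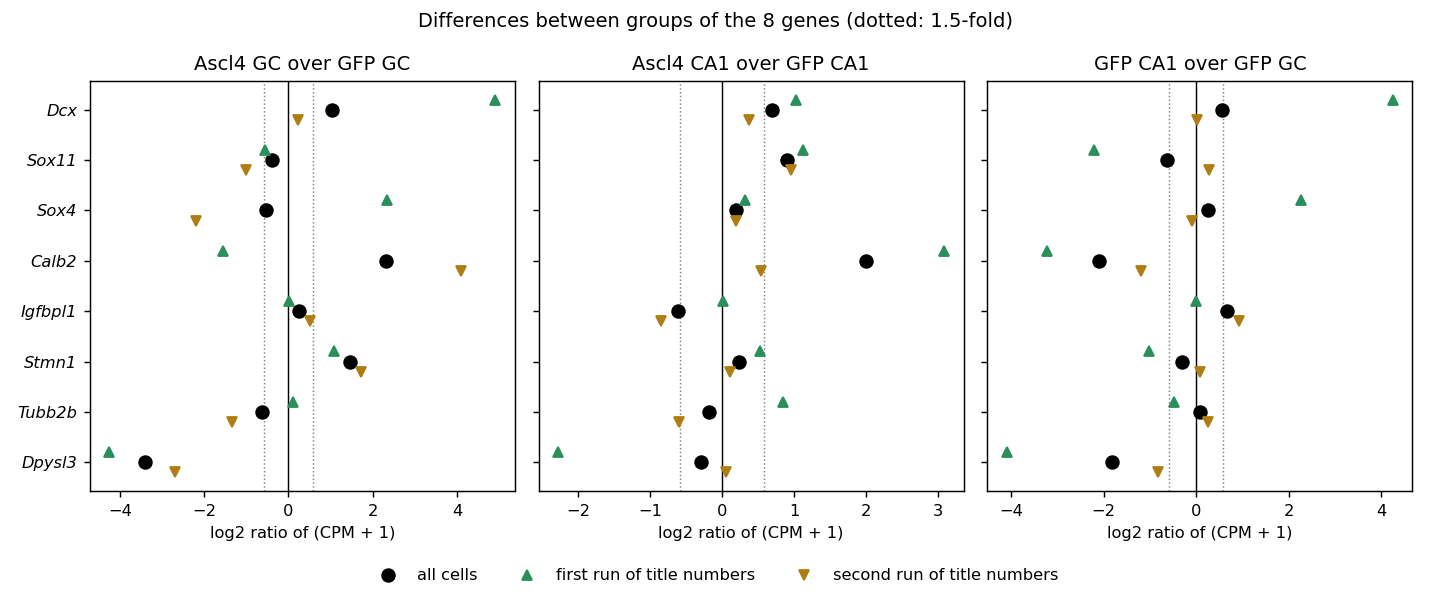
Log2 ratios of CPM plus 1 for the 8 genes in the 3 comparisons, from all cells (circles) and from each run of title numbers (triangles), with dotted lines at 1.5-fold. Stmn1 lay between 1.09 and 1.72 in Ascl4 GC cells in both runs, whereas Calb2, Sox4 and Tubb2b lay on opposite sides of 0 in the runs of that comparison.

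Stmn1 (chr4:134468320-134473843, plus strand, GRCm38) had the highest level per exon length of the 8 genes in every group. In reads per kilobase of exon per 1000000 reads (RPKM) it was at 240.0 in Ascl4 GC, 86.1 in GFP GC, 81.5 in Ascl4 CA1 and 69.5 in GFP CA1 cells. On the CPM scale Ascl4 GC cells ranged from 2.26 over a median of 424 to 1725, against 0, 140 and 978 CPM in GFP GC cells. The groups overlapped, but 36 of 51 Ascl4 GC cells (70.6%) lay above 227.4 CPM, the upper quartile of GFP GC cells. The pooled level was 461 CPM (95% interval 459 to 464) in Ascl4 GC and 165.6 CPM (163.8 to 167.3) in GFP GC cells, a ratio of 2.79 and a log2 ratio of 1.47. It was 1.09 in the first and 1.72 in the second run. Leaving out the cells of more than 12000 genes gave 1.45. In all 14 alternatives it stayed at or above 1.09. In CA1 the pooled levels were 156.7 CPM in Ascl4 and 133.5 CPM in GFP cells, a log2 ratio of 0.23, which did not reach 1.5-fold. Whether the differences in GC and CA1 themselves differ could not be tested.

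Other stathmins were set beside Stmn1. In Ascl4 GC cells, Stmn2, a stathmin of growing and regenerating axons, was at 82.7 CPM against 22.6 CPM in GFP GC cells, a log2 ratio of 1.83, but 66.7% of its Ascl4 GC reads came from the 4 cells of more than 12000 genes. Without those cells Stmn2 was at 30.1 CPM and the log2 ratio was 0.40. Stmn1 held only 9.94% of its reads in them. Stmn3 (567 CPM in Ascl4 GC and 588 CPM in GFP GC cells) and Stmn4 (73.1 CPM in Ascl4 GC and 71.6 CPM in GFP GC cells) differed by less than 1.5-fold. Stmn2 and Stmn3 were steady higher in GFP CA1 than in GFP GC cells, by log2 ratios of 3.70 and 0.89.

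Dpysl3 (chr18:43320984-43438286, minus strand) went the other way. Pooled Ascl4 GC cells held 8.14 CPM (7.82 to 8.48), against 95.5 CPM (94.2 to 96.8) in GFP GC cells, so GFP GC cells were 11.7 times higher and the log2 ratio was -3.40. The lowest, median and highest cells had 0, 0.108 and 657 CPM in Ascl4 GC and 0, 0.837 and 1199 CPM in GFP GC cells. At least 10 CPM was reached by 4 of 51 Ascl4 GC cells (7.84%, exact interval 2.18 to 18.9%) and 14 of 47 GFP GC cells (29.8%, 17.3 to 44.9%). Most cells of either group were thus near 0, and the difference lay in a minority of GFP GC cells of which 3 held 54.3% of the group's reads. The log2 ratio was -4.25 and -2.69 in the 2 runs and -3.56 for mean CPM without the highest cell. The smallest difference over the alternatives was -2.03, with the authors' normalized values. GFP CA1 cells were also below GFP GC cells, at 26.4 CPM against 95.5 CPM (log2 ratio -1.82), and ranged over 0, 0 and 1057 CPM. Thinning every cell to 500000 reads brought that difference to -0.96 and the one between the GC groups to -2.12. In CA1 the levels were 21.3 CPM in Ascl4 and 26.4 CPM in GFP cells, and the log2 ratio of -0.30 did not reach 1.5-fold.

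The relatives of Dpysl3 did not follow it. Dpysl4, another collapsin response mediator protein, was at 146.5 CPM in Ascl4 GC against 49.3 CPM in GFP GC cells, with 22 of 51 Ascl4 GC and 11 of 47 GFP GC cells at 10 CPM or more. Its log2 ratio was 1.55, steady higher, and it was 1.61 when the 4 cells of more than 12000 genes were dropped. Crmp1, at 332 CPM in Ascl4 GC and 329.9 CPM in GFP GC cells, and Dpysl2, with a log2 ratio of 0.24, differed by less than 1.5-fold. Dpysl5 did not pass the filter on low values. The level summed over a group cannot tell fewer cells with Dpysl3 from less Dpysl3 in each, but both the number of cells and the highest cell were lower in Ascl4 GC cells.

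**Figure D3:**
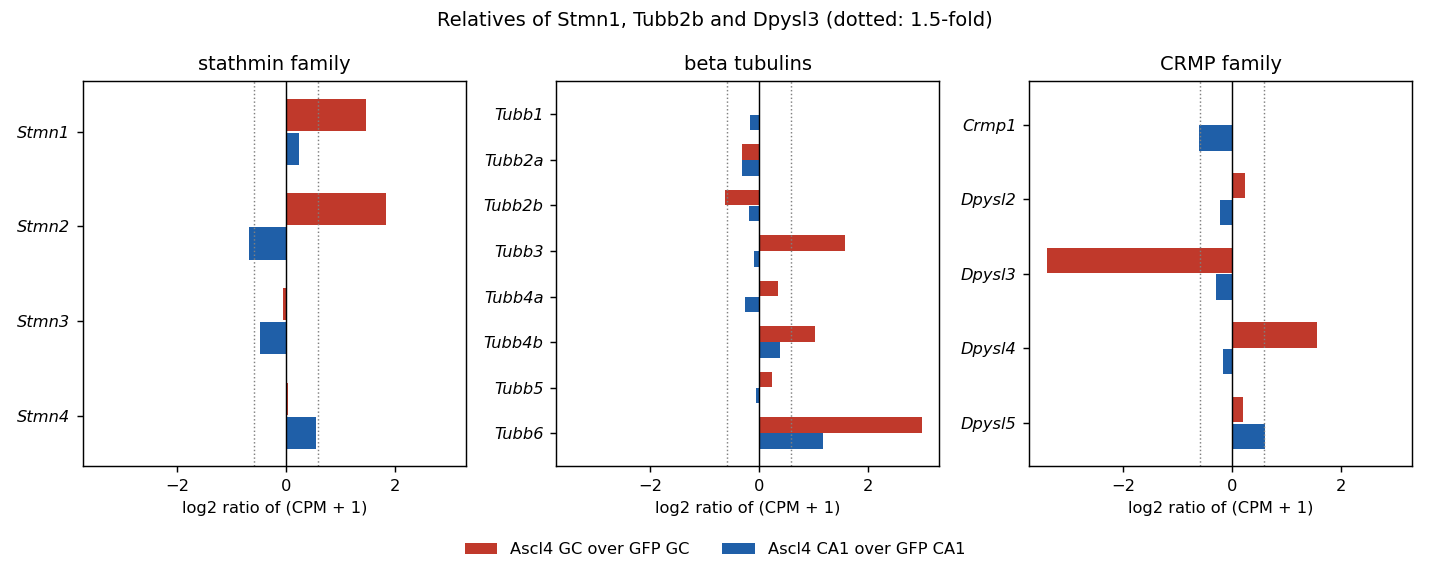
Horizontal bars give the log2 ratio of CPM plus 1 for stathmins, beta-tubulins and collapsin response mediator proteins, Ascl4 GC over GFP GC cells (red) above Ascl4 CA1 over GFP CA1 cells (blue), with dotted lines at 1.5-fold. Dpysl3 and Dpysl4 point in opposite directions in GC at -3.40 and 1.55. Tubb6, with a long bar in GC, did not pass the filter on low values there.

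Tubb2b (chr13:34126748-34130466, minus strand) was in most cells of every group, at 10 CPM or more in 34 of 51 Ascl4 GC, 40 of 47 GFP GC, 36 of 45 Ascl4 CA1 and 40 of 46 GFP CA1 cells. Its cells ranged over 0, 48.99 and 293 CPM in Ascl4 GC and 0.302, 67.3 and 610 CPM in GFP GC cells, which overlapped throughout. The pooled levels were 61.96 CPM in Ascl4 GC and 96.2 CPM in GFP GC cells, a log2 ratio of -0.63. It was -1.33 in the second run and 0.10 in the first, so the direction rested on the second run. In CA1 the levels were 89.5 CPM in Ascl4 and 102.2 CPM in GFP cells. Per-cell values of Tubb2b ran with those of Tubb2a, a near-identical neighbour in the beta-tubulin family, with Spearman's rho of 0.86, 0.85, 0.72 and 0.68 in Ascl4 GC, GFP GC, Ascl4 CA1 and GFP CA1 cells. The mean of 0.78 was the highest of 5183 genes compared. Reads of such a pair can be split between copies, so Tubb2b values are uncertain, but the part of this in the likeness was not tested. The next most alike genes, Pnmal1 and 1700037H04Rik, had means of 0.32.

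Among other tubulins, Tubb3, the beta-tubulin typical of neurons, was steady higher in Ascl4 GC cells, at 104.8 CPM against 34.7 CPM in GFP GC cells (log2 ratio 1.57). It was at 10 CPM or more in 13 of 51 Ascl4 GC and 6 of 47 GFP GC cells. Tubb4b was also steady higher, at 10 CPM or more in 28 of 51 Ascl4 GC and 17 of 47 GFP GC cells (log2 ratio 1.03), but the ratio was 0.48 with the authors' normalized values. Tubb3 and Tubb6 were steady higher in GFP CA1 than in GFP GC cells, at 126.6 CPM against 34.7 CPM and 12.5 CPM against 0.00930 CPM. Tubb6 reached 10 CPM in only 3 GFP CA1 and 0 GFP GC cells.

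Sox11 (chr12:27334264-27342574, minus strand) was the transcription factor with the clearest difference, and it appeared in CA1. Ascl4 CA1 cells had 0, 80 and 1192 CPM at the lowest, median and highest cell, against 0, 1.41 and 894 CPM in GFP CA1 cells. The gene was at 10 CPM or more in 26 of 45 Ascl4 CA1 cells (57.8%, 42.2 to 72.3%) and 17 of 46 GFP CA1 cells (36.96%, 23.2 to 52.5%), so the ranges and the intervals overlapped. The pooled levels were 188.5 CPM (186.7 to 190.4) in Ascl4 CA1 and 100.6 CPM (99.3 to 101.8) in GFP CA1 cells, a log2 ratio of 0.90. It was 1.13 in the first and 0.95 in the second run, 1.43 for mean CPM without the highest cell and 1.02 without the cells whose markers favoured the other cell type. With all cells, including those removed by quality control, it was 0.45, under 1.5-fold. In that table the 13 removed Ascl4 CA1 cells held Sox11 at 1.18 CPM, and the 8 removed GFP CA1 cells at 686 CPM.

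In granule cells Sox11 was not higher in the Ascl4 group. It was at 117.7 CPM in Ascl4 GC and 155.3 CPM in GFP GC cells (log2 ratio -0.40), with 26 of 51 and 25 of 47 cells at 10 CPM or more. The GFP GC level included 1 cell at 2794 CPM, and the log2 ratio of mean CPM was -0.08 once each group's highest cell was left out. GFP CA1 cells were lower than GFP GC cells by a log2 ratio of -0.62, with medians of 1.41 CPM in GFP CA1 and 23.7 CPM in GFP GC cells, but the second run gave 0.26 and the first -2.22. The order of pooled levels was Ascl4 CA1, GFP GC, Ascl4 GC and GFP CA1, and all neighbours in it overlapped over their cells. Per-cell likeness was weak, the most alike genes being Setd2, Ppp4c and Jmjd1c with mean rho of 0.35, 0.34 and 0.33.

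Sox4 (chr13:28948919-28953713, minus strand) was lower and in fewer cells. It was at 23.3 CPM in Ascl4 GC and 34.3 CPM in GFP GC cells, with 8 of 51 and 4 of 47 cells at 10 CPM or more. A single GFP GC cell had 1284 CPM, and the 3 highest cells held 98.9% of the GFP GC reads and 89.9% of the Ascl4 GC reads. The log2 ratio was -0.54, and 0.62 for mean CPM without the highest cells, so no direction can be read. Ascl4 CA1 cells held Sox4 at 47.1 CPM and GFP CA1 cells at 41.04 CPM, with 13 of 45 Ascl4 CA1 and 15 of 46 GFP CA1 cells at 10 CPM or more. Sox12, the remaining SoxC gene, was at 18.4 CPM in Ascl4 GC and 21.6 CPM in GFP GC cells, and at 7.68 CPM in Ascl4 CA1 and 13.2 CPM in GFP CA1 cells. In Ascl4 CA1 cells, 12 of the 13 cells with Sox4 at 10 CPM or more also had Sox11, of 26 with Sox11, and rho between the pair was 0.31 over 45 cells. In GFP CA1 cells 8 of 15 did, with rho of 0.23, and in Ascl4 GC and GFP GC cells 4 of 8 and 0 of 4, with rho of -0.08 and -0.15.

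**Figure D4:**
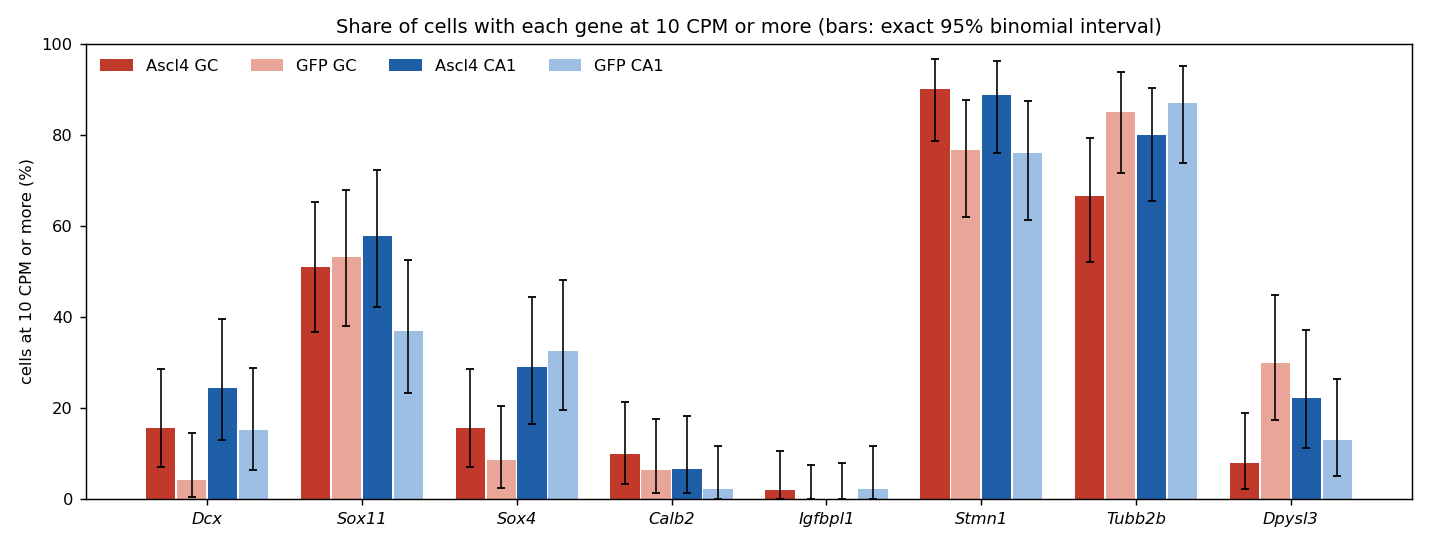
Bars give the percentage of cells with each gene at 10 CPM or more in the 4 groups, and thin lines the exact 95% binomial interval, which covers counting error only. For Dcx the share was 15.7% in Ascl4 GC, 4.26% in GFP GC, 24.4% in Ascl4 CA1 and 15.2% in GFP CA1 cells, with overlapping intervals.

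Dcx (chrX:143855842-143933311, minus strand), the standard stain for newborn granule cells, was high in few cells. It was at 27.8 CPM (27.2 to 28.4) in Ascl4 GC and 13.01 CPM (12.5 to 13.5) in GFP GC cells, and at 32.6 CPM (31.8 to 33.3) in Ascl4 CA1 and 19.7 CPM (19.2 to 20.3) in GFP CA1 cells. Lowest, median and highest cells had 0, 0.295 and 744 CPM in Ascl4 GC and 0, 0 and 306 CPM in GFP GC cells, and 0, 0.179 and 597 CPM in Ascl4 CA1 and 0, 0 and 323 CPM in GFP CA1 cells. At least 10 CPM was reached by 8 of 51 Ascl4 GC, 2 of 47 GFP GC, 11 of 45 Ascl4 CA1 and 7 of 46 GFP CA1 cells. The 2 GFP GC cells carried nearly all reads of their group, since the top 3 cells held 99.4%.

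In GC the log2 ratio of Dcx was 1.04. It was 4.91 in the first run, where no GFP GC cell reached 10 CPM, and 0.24 in the second. In CA1 it was 0.70, with 1.02 in the first run and 0.37 in the second, and 0.13 once the 8 Ascl4 CA1 cells whose markers favoured granule cells were left out. Calb1 is one of those granule cell markers and is also read in CA1 cells. At least 1 read of Dcx was found in 29 of 51 Ascl4 GC and 15 of 47 GFP GC cells, and in 26 of 45 Ascl4 CA1 and 15 of 46 GFP CA1 cells. As a background for cells with at least 1 read, Prox1 had a read in 6 of 45 Ascl4 CA1 and 12 of 46 GFP CA1 cells, and Neurod6, a pyramidal cell gene, in 6 of 51 Ascl4 GC and 9 of 47 GFP GC cells. After thinning to 500000 reads, Dcx had a read in 18 Ascl4 GC, 6 GFP GC, 17 Ascl4 CA1 and 9 GFP CA1 cells, and Neurod6 in 2 Ascl4 GC and 4 GFP GC cells. The other doublecortin family genes in Ascl4 GC against GFP GC cells stayed under 1.5-fold, with Dclk1 at 452 and 347 CPM, Dclk2 at 77.7 and 58.3 CPM and Dclk3 at 46.5 and 33.8 CPM. Dclk3 was steady lower in GFP CA1 than in GFP GC cells, at 1.48 CPM against 33.8 CPM, with 1 GFP CA1 and 7 GFP GC cells at 10 CPM or more.

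Calb2 (chr8:110137502-110168210, minus strand) was the gene whose difference rested on cells that stood apart. Pooled Ascl4 GC cells held 24.6 CPM (24.03 to 25.2) and GFP GC cells 4.17 CPM (3.90 to 4.45), a log2 ratio of 2.31. The median cell of both groups was at 0, and the highest cell at 547 CPM in Ascl4 GC and 171.4 CPM in GFP GC. All 4 Ascl4 GC cells with more than 12000 genes had Calb2, at 133.6 to 547 CPM, and together they held 95.1% of its reads in the group. The other 47 Ascl4 GC cells were at 1.31 CPM, with 1 cell at 10 CPM or more, against 4.17 CPM and 3 of 47 GFP GC cells, and the log2 ratio became -1.16. In the first run, which held none of these 4 cells, it was -1.55. In the same cells Cajal-Retzius markers summed to at most 354 CPM, against a median of 0.136 CPM over Ascl4 GC and 0.133 CPM over GFP GC cells. Interneuron markers summed to 114.1 to 328 CPM in them, against a median of 395 CPM in Ascl4 GC and 456 CPM in GFP GC cells. Gad1 alone gave 338.9 of the 550 CPM of pooled interneuron markers in Ascl4 GC, and 449.1 of 565.6 CPM in GFP GC cells. Gad2 was at 0.652 CPM in Ascl4 GC and 0.312 CPM in GFP GC cells. Of the 15 interneuron markers Dlx2 was at 0 in Ascl4 GC cells and Dlx2, Dlx5, Dlx6, Lhx6 and Htr3a in GFP GC cells. The part of these marker levels in the Calb2 values was not tested.

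In CA1 cells Calb2 was rarer. It was at 3.86 CPM in Ascl4 CA1 and 0.212 CPM in GFP CA1 cells, with 3 of 45 and 1 of 46 cells at 10 CPM or more and medians of 0. The log2 ratio was 2.00, and the 3 highest cells held 98.8% of the Ascl4 CA1 reads and 100% of the GFP CA1 reads. The single Ascl4 CA1 cell of more than 12000 genes had Calb2 at 44.5 CPM and oligodendrocyte lineage markers at 35979 CPM. Of the other calcium buffers, Calb1 was steady higher in Ascl4 CA1 cells, at 1104 CPM against 617 CPM in GFP CA1 cells (log2 ratio 0.84), and Pvalb steady lower at 8.23 CPM against 29.2 CPM (log2 ratio -1.71). Pvalb reached 10 CPM in only 4 of 45 Ascl4 CA1 and 8 of 46 GFP CA1 cells.

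**Figure D5:**
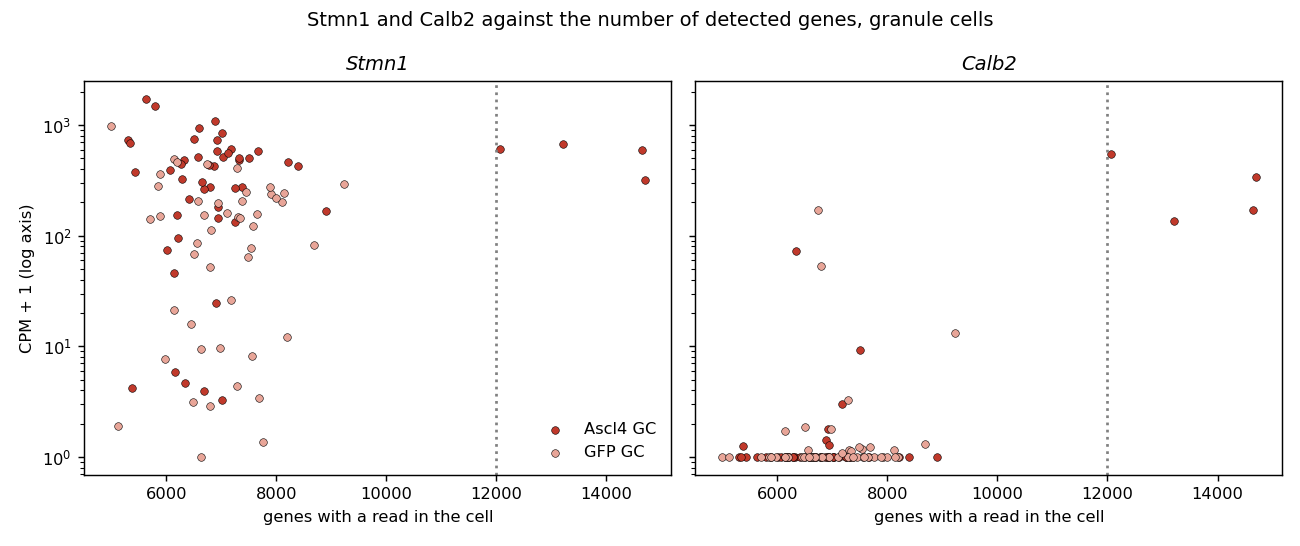
Each point is 1 granule cell, Ascl4 GC in dark red and GFP GC in pale red, with the number of genes that had a read on the horizontal axis and CPM plus 1 of Stmn1 or Calb2 on the vertical log axis. The 4 Ascl4 GC cells right of the dotted line at 12000 genes lie among the other cells for Stmn1 but hold 95.1% of the Calb2 reads.

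Igfbpl1 (chr4:45809468-45826923, minus strand) was close to absent. Reads were found in 5 of 51 Ascl4 GC, 0 of 47 GFP GC, 2 of 45 Ascl4 CA1 and 1 of 46 GFP CA1 cells, and the pooled levels were 0.198, 0, 0.0374 and 0.585 CPM in the same groups. The 0 of 47 GFP GC cells allow, at 3 cells of 47, a share of cells with a read of up to 6.38% (exact upper limit 7.55%), and the floor of 3 reads in that group is 0.0140 CPM. Against that floor Ascl4 GC cells were at least 14.2-fold higher, but 1 cell at 12.7 CPM carried most of the reads. That cell also had Dcx at 19.3, Sox11 at 93.02, Stmn1 at 164.8, Tubb2b at 162.8 and Dpysl3 at 35.2 CPM, and was the only quality-controlled cell with 6 of the genes at 10 CPM or more. Its Prox1 was at 0 and its Neurod6 at 79.4 CPM, and its CA1 pyramidal markers summed to 1971.5 CPM against 409 CPM for its granule cell markers. Without the 3 Ascl4 GC cells whose markers favoured the other cell type, of which it is one, the log2 ratio of Igfbpl1 was 0.03, against 0.26 with them. Its microglia markers summed to 12305 CPM, against a median of 161.1 CPM in Ascl4 GC cells. Igfbp5, which encodes a binding protein for insulin-like growth factors, was steady lower in Ascl4 GC cells, at 27.1 CPM against 123.3 CPM in GFP GC cells (log2 ratio -2.14). However, 18 of 51 Ascl4 GC and 18 of 47 GFP GC cells had Igfbp5 at 10 CPM or more.

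The 8 genes did not mark a common set of cells. The median cell of every group had 3 of them at 10 CPM or more, and no cell had 7 or 8. At least 4 genes were reached by 11 of 51 Ascl4 GC (21.6%), 12 of 47 GFP GC (25.5%), 20 of 45 Ascl4 CA1 (44.4%) and 10 of 46 GFP CA1 cells (21.7%). Over pairs of the genes, Spearman's rho across cells had a median of 0.03 in Ascl4 GC, 0.01 in GFP GC, 0.01 in Ascl4 CA1 and 0.01 in GFP CA1 cells. These are descriptions over the cells of 1 group, whose depths differ. Within Ascl4 GC cells, rho between each gene and the Ascl4 level ran from -0.35 to 0.22 over 51 cells, and within Ascl4 CA1 cells from -0.29 to 0.28 over 45 cells.

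Other genes of young neurons were read from a list of 38 genes, of which 37 were found. In Ascl4 GC cells 29 were expressed, and 7 were at least 1.5-fold higher and 5 lower, with a median log2 ratio of 0.01 beside -0.08 over all expressed genes. The shares over all expressed genes were 25.6% higher and 30.7% lower. Of the 29 expressed list genes 4 were steady higher and 2 steady lower, against 10.3% and 11.7% of all expressed genes. The steady higher genes included Stmn2 and Tubb3, given above, and Elavl3, an RNA-binding protein of neurons, at 110.3 CPM in Ascl4 GC and 42.7 CPM in GFP GC cells (log2 ratio 1.35). Nnat (neuronatin) was steady lower in Ascl4 GC cells at 5.26 CPM against 74.6 CPM in GFP GC cells (log2 ratio -3.59), and so was Mex3b, an RNA-binding protein, at 3.59 CPM against 39.9 CPM (log2 ratio -3.15). In Ascl4 CA1 cells 30 were expressed, with 2 higher and 9 lower and a median of -0.19 beside -0.02. The shares over all expressed genes there were 24% higher and 24.3% lower. Neurod1, a transcription factor of young granule cells, was steady higher at 32.3 CPM against 13.3 CPM in GFP CA1 cells (log2 ratio 1.21), but at 0.22 without the cells whose markers favoured granule cells. Of 2 genes steady lower there, Fabp7, a fatty acid binding protein of radial glia, differed by a log2 ratio of -1.69. It was at 10 CPM or more in 3 Ascl4 CA1 and 6 GFP CA1 cells. The share steady lower over all expressed genes was 8.57%. In GFP CA1 against GFP GC cells, 12 were higher and 9 lower of 31 expressed. Over all expressed genes of that comparison 30.5% were higher and 27.1% lower. Elavl4 (69.9 CPM against 0.0558 CPM) and Nrep (4.39 CPM against 279 CPM) differed most.

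Progenitor and cell cycle genes were mostly under the filter. Of 18, 4 were expressed in the comparison of GC groups, with 0 higher and 2 lower, and 3 in that of CA1 groups, with 3 higher and 0 lower. Over all expressed genes the shares were 25.6% higher and 30.7% lower for GC, and 24% and 24.3% for CA1. Sox2, Neurog2 and Cdk1 were at 0 in GFP GC cells, and Tfap2c was at 0 in Ascl4 GC cells. Hmgb2, a chromatin protein of dividing cells, was steady lower in Ascl4 GC cells at 2.32 CPM against 20.9 CPM in GFP GC cells, and steady higher in Ascl4 CA1 cells at 14.9 CPM against 6.01 CPM in GFP CA1 cells. Few cells had it at 10 CPM or more, namely 2 Ascl4 GC, 8 GFP GC, 9 Ascl4 CA1 and 5 GFP CA1 cells.

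Genes of mature neurons were set against these. Of 19 expressed in the comparison of GC groups, 1 was higher and 7 were lower in Ascl4 GC cells, with a median of -0.37 beside -0.08 over expressed genes. Over all expressed genes, 25.6% were higher and 30.7% lower between the GC groups, and 24% higher and 24.3% lower between the CA1 groups. Genes called steady lower made up 11.7% between the GC groups and 8.57% between the CA1 groups. Steady lower were the vesicular glutamate transporter Slc17a7, at 79.9 CPM against 318 CPM in GFP GC cells (log2 ratio -1.98), the neurofilaments Nefm (-1.87) and Nefl (-1.73), the long noncoding RNA Snhg11 (-1.12) and the NMDA receptor subunit Grin2a (-0.80). In CA1, 1 was higher and 4 were lower of 19, with a median of -0.28 beside -0.02, and the postsynaptic gene Nrgn was steady lower in Ascl4 CA1 cells at 251 CPM against 416 CPM in GFP CA1 cells. Interferon genes were higher in the Ascl4 groups. At least 1.5-fold higher were 13 of 13 expressed genes in Ascl4 GC and 11 of 12 in Ascl4 CA1 cells. The filter admits a gene on 1 group alone. Ifit1, for example, was at 163.7 CPM in Ascl4 GC and 0.409 CPM in GFP GC cells, and passed through the Ascl4 group. For such genes these calls were largely fixed in advance. Over all 17 interferon genes found, without the filter, the median log2 ratio was 3.95 between the GC groups and 3.48 between the CA1 groups. Their summed pooled level was 1363 CPM in Ascl4 GC and 63.3 CPM in GFP GC cells, and 2012 CPM in Ascl4 CA1 and 161.6 CPM in GFP CA1 cells. Spearman's rho between the interferon level and each of the 8 genes ran from -0.07 to 0.18 across Ascl4 GC and from -0.16 to 0.23 across Ascl4 CA1 cells. Markers of other cells also differed between the Ascl4 and GFP groups, but not all in 1 direction. Microglia markers were at least 1.5-fold higher for 6 and lower for 0 of 12 expressed genes in Ascl4 GC cells, and higher for 10 and lower for 1 of 14 in Ascl4 CA1 cells. Their summed pooled level was 1568 CPM in Ascl4 GC and 726 CPM in GFP GC cells, and 4442 CPM in Ascl4 CA1 and 2130.4 CPM in GFP CA1 cells. Single cells ran from 0.254 to 14303 CPM in Ascl4 GC, 0 to 15617 CPM in GFP GC, 1.01 to 56642 CPM in Ascl4 CA1 and 6.95 to 24141 CPM in GFP CA1 cells, and 0 of the 14 markers were at 0 in any group. Of the microglia markers, 4 were steady higher in Ascl4 GC cells and 0 in Ascl4 CA1 cells, against 10.3% and 8.97% of all expressed genes. Oligodendrocyte lineage markers were higher for 5 of 5 expressed genes in Ascl4 GC cells, at a summed 7698 CPM against 570.2 CPM in GFP GC cells, with medians over cells of 53 CPM in Ascl4 GC and 181.9 CPM in GFP GC. Gpr17 and Enpp6 were at 0 in GFP GC cells. In the 47 Ascl4 GC cells of at most 12000 genes, the oligodendrocyte sum had a median of 43.5 CPM and a highest value of 1705 CPM. In CA1 the pooled oligodendrocyte sum was 841 CPM in Ascl4 and 853 CPM in GFP cells. Astrocyte markers were higher for 3 and lower for 4 of 9 expressed genes in Ascl4 GC cells. In Ascl4 CA1 cells they were higher for 0 and lower for 3 of 6. The part of the microglia, oligodendrocyte and interferon genes in the differences of the 8 genes was not tested otherwise.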

How the data were processed

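The authors deposited read counts per gene for all 228 cells and for the 189 cells kept by their quality control, and the counts of cells in both tables were equal. They also deposited a normalized signal for the 189 cells, used here as an alternative. Per the submitters' processing notes, STAR, HTSeq and GRCm38.p4 were used, with no version, setting or rule of the quality control given in the sources used here. The text of the series states 52 Ascl4 GC, 53 GFP GC, 51 Ascl4 CA1 and 48 GFP CA1 cells past quality control, but the columns of the table number 51, 47, 45 and 46, and these were analysed. The 92 spike-in rows were left out.

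Groups came from the cell titles. Reads of a group were summed, scaled to CPM and compared as log2 ratios with a pseudocount of 1 CPM. Intervals at 95% were exact Poisson for levels and exact Clopper-Pearson for shares of cells. Reads carry no molecular identifiers, so intervals and floors (3 reads) cover counting error only. With each group as 1 sample no test was run. Gene positions came from GENCODE M21 on GRCm38, sequences from RefSeq.

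The 8 genes and the lists were chosen with earlier results of these data known. Besides the 8 genes, the rule named from each family or list up to 3 expressed and steady genes with the largest log2 ratio per comparison, and the 3 genes most alike in per-cell rank among genes read in at least 50% of the cells of every group. Some genes that this rule named are not reported here. For Calb2 and Igfbpl1, the markers and levels of single cells were picked after their values were seen, as were Sox12, Prox1, Elavl3, Grin2a, Snhg11 and the families' members that differed little. Alternatives were the mean of per-cell CPM with and without the highest cell, dropping the deepest 10% of cells, a pseudocount of 0.1 or 10 CPM, scaling by edgeR's TMM factors or by DESeq2's size factors, the authors' normalized values, all cells without quality control, each run of title numbers, thinning to 500000 reads and no filter on expressed genes. Leaving out cells of more than 12000 genes, or cells whose markers favoured the other cell type, was chosen after seeing the data. The code was tested on simulated data. Scaling factors were computed in R 4.3.3 with DESeq2 1.42.0 and edgeR 4.0.16. All else was computed in Python 3.11.15 with scipy 1.17.1, pandas 2.3.3 and numpy 2.4.6, and plotted with matplotlib 3.10.9.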

Additional observations from a re-analysis of the deposited data

Results flagged for a closer look

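Among the 8 genes and the genes named from the families and lists in any of the 3 comparisons, there were 7 for which the difference between Ascl4 and GFP cells in pooled CPM was at least 1.5-fold in opposite directions in GC and in CA1, and with 1 sample per group the difference between the cell types was not tested. Hmgb2 was lower in Ascl4 GC cells (log2 ratio -2.72) and higher in Ascl4 CA1 cells (1.18), a gap of -3.90. Stmn2 was higher in Ascl4 GC (1.83) and lower in Ascl4 CA1 cells (-0.69), a gap of 2.51, and the value in GC fell under 1.5-fold without the cells of more than 12000 genes. Elavl3 was higher in Ascl4 GC (1.35) and lower in Ascl4 CA1 cells (-0.64), a gap of 1.99. For the remaining 4 genes the value in GC changed sign between the runs of title numbers, and Cd24a, Igfbp3 and Igfbp6 did not pass the filter on low values there. Cd24a was higher in Ascl4 GC (1.42, with -0.01 in the first and 2.24 in the second run) and lower in Ascl4 CA1 cells (-4.17, with -0.05 and -4.98 in the runs), a gap of 5.59. Fabp7 was higher in Ascl4 GC (0.88, with -1.77 and 3.73 in the runs) and lower in Ascl4 CA1 cells (-1.69), a gap of 2.56. Igfbp3 was higher in Ascl4 GC (2.13, with -1.18 and 3.61) and lower in Ascl4 CA1 cells (-1.77), a gap of 3.91. Igfbp6 was lower in Ascl4 GC (-1.42, with 2.57 and -3.81) and higher in Ascl4 CA1 cells (0.61), a gap of -2.03.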

How the results depend on the processing

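Of 13 values at least 1.5-fold among the 24 gene values, 8 kept their sign under every alternative and 3 stayed at least 1.5-fold the same way, namely Stmn1 and Dpysl3 in the GC groups and Dpysl3 in GFP CA1 against GFP GC cells. Of 38 values of list genes, 35 stayed at least 1.5-fold and 0 reversed, the exceptions being Stmn2 (0.40), Tubb4b (0.48) and Neurod1 (0.22), each given above. These genes were named because they were steady, which already required 1.5-fold in mean CPM, with and without the highest cell, and in both runs. Their count was thus partly fixed in advance and is not comparable with that of the 8 genes. A value of the 8 genes counted as moved when it shifted by more than the SD of the 2 runs, and the cause of shifts was not tested. Between the GC groups, the median log2 ratio was 0.33 for mean CPM without the highest cell, 0.35 with a pseudocount of 0.1 CPM and -0.39 in the second run. The number of genes lower there was 1 for mean CPM without the highest cell, without the deepest 10% of cells, with a pseudocount of 10 CPM and with all cells, and 4 in the second run. Of the values at least 1.5-fold, those reversed were Calb2 (-1.55 in the first run, -1.16 without cells of more than 12000 genes) and Tubb2b (0.10 in the first run). Sign changes of values under 1.5-fold are not listed here. Sox4 between the GC groups is one, at -0.54 in all cells, 2.34 in the first run and -2.20 in the second. Between the CA1 groups, the number lower was 0 for mean CPM with or without the highest cell, without the deepest 10%, with a pseudocount of 10 CPM, with all cells and after thinning, and 2 in the second run. The number higher was 1 with a pseudocount of 10 CPM and in the second run. The median was 0.62 with the authors' normalized values and 0.69 in the first run. Igfbpl1 reversed to 0.018 for mean CPM without the highest cell, 0.072 without the deepest 10%, 0.015 in the first run and 0.0057 after thinning. In GFP CA1 against GFP GC cells, the number higher was 0 for mean CPM, without the deepest 10%, with a pseudocount of 10 CPM, with the authors' normalized values and after thinning, and 2 for mean CPM without the highest cell, with a pseudocount of 0.1 CPM and in the first run. The number lower was 1 with a pseudocount of 10 CPM and 5 with the authors' normalized values. The median was -0.99 with the authors' normalized values and -0.75 in the first run, and Sox11 reversed to 0.26 in the second run. In this comparison the authors' normalized values shifted the median of expressed genes by -0.25, TMM by -0.11 and median-of-ratios scaling by -0.12. Within runs that median shifted by 0.22 and -0.14 between the GC groups. No paired analysis was possible because the title numbers name single cells and no number is shared between groups. Igfbpl1 rested on few reads at these depths.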

Other observations

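The 39 cells removed by the authors' quality control also held the 8 genes. In the 5 removed Ascl4 GC cells Dpysl3 was at 31.7 CPM, with 3 cells at 10 CPM or more, and in the 13 removed GFP GC cells it was at 572 CPM, with 5 cells at 10 CPM or more and a highest cell of 3177 CPM. Stmn1 was at 630 CPM in the removed Ascl4 GC cells and at 29.8 CPM in the removed GFP GC cells, and at 190.6 CPM in the 13 removed Ascl4 CA1 cells and 1.21 CPM in the 8 removed GFP CA1 cells. Pooled over the removed cells, Dcx was at or under 2.01 CPM and Calb2 at or under 1.27 CPM in all 4 groups. The highest removed cells had Dcx at 26.3 CPM (GFP CA1) and 16.6 CPM (GFP GC), and Calb2 at 6.58 CPM (GFP GC).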
